A study of Mus musculus with 2 samples.

Results

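The cells described here are macrophages of the mouse retina with the transcripts of perivascular macrophages. They were chosen by a readout of these same libraries, as the counts of 10 gate genes. Cell barcodes were kept when 300 genes or more were seen in them and mitochondrial transcripts took up 10% of their counts or less, and a kept cell was a member when it met 2 conditions. The summed counts of Mrc1, F13a1, Cd163, Lyve1 and Cbr2 had to be at least 10 per 10000 UMIs. The summed counts of P2ry12, Tmem119, Siglech, Gpr34 and P2ry13 had to be under 25 per 10000. A UMI is a molecular tag that counts each captured transcript once. The rule gave 86 members among 6799 cells of the light-damaged library, 1.26% (95% exact interval 1.01% to 1.56%), and 54 among 3948 cells of the control library, 1.37% (1.03% to 1.78%). That is 140 members among 10747 cells. The cells set beside them were microglia of the same library, with a microglia sum of at least 25 and a perivascular sum under 3, which numbered 4214 in the light-damaged library and 3402 in the control library.

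Perivascular macrophages belong to the macrophages of the central nervous system's borders, which lie along blood vessels rather than within the nervous parenchyma where microglia reside. They are known for taking up material from blood and interstitial fluid through the mannose receptor Mrc1, the haemoglobin scavenger receptor Cd163 and the hyaluronan receptor Lyve1. A share of border macrophages is known to carry MHC class II molecules, which display peptides from engulfed proteins to CD4+ T cells.

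Both libraries came from live, sorted Cx3cr1YFP+ cells of retinas of male CB6F1. Cx3cr1-YFP mice aged 8 months, with 5 to 8 mice pooled per library and 1 droplet 3' library per group. In these animals YFP is made from the locus of the fractalkine receptor Cx3cr1, so a cell without that promoter's activity was not sorted. Per the labels, the light-damage model used dark adaptation overnight, dilated pupils and 10 klux of LED light for 4 h, with 5 days of normal lighting before collection. The control library is described in the labels as having no light damage, although the labels carry the same protocol text for both. Whether its mice had the dark adaptation or dilated pupils is not told apart there. Library and group cannot be told apart, nor can the mice of a pool. No test between groups was therefore possible, and the intervals given are exact 95% intervals for counting error only.

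The 86 members of the light-damaged library held 823348 UMIs and the 54 members of the control library 372875. Their median depth was 9458 UMIs (lowest 3203, highest 22413) in the light-damaged library and 7034 (1239 to 12697) in the control library. Median mitochondrial content was 1.94% in light-damaged members and 1.65% in control members. Levels are given as CPM, a gene's summed UMIs per 1000000 summed UMIs of the same cells. A single UMI was worth 1.22 CPM in light-damaged members and 2.68 CPM in control members. The libraries shared 47 cell barcodes, of which 3 were light-damaged members and 1 was a control member. Without them 152 genes were at least 2-fold higher and 156 at least 2-fold lower in light-damaged members than in control members, against 135 and 158 with them.

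The gate genes describe how the members were picked. Mrc1 had 638 CPM in light-damaged members and 791 CPM in control members, with a UMI in 97.7% and 94.4% of cells. F13a1, the coagulation factor XIII A subunit, had 656 CPM in light-damaged members and 357 CPM in control members. Lyve1 stood at 267 CPM in light-damaged members and 274 CPM in control members, Cd163 at 109 CPM in light-damaged and 145 CPM in control members, and Cbr2, a carbonyl reductase, at 210 CPM in light-damaged and 148 CPM in control members. At least 3 of the 5 perivascular gate genes were seen in 70 of 86 light-damaged members and 44 of 54 control members, while 0 light-damaged and 5 control members were picked on a single gene. The perivascular sum ran between 10.3 and 62.7 per 10000 in light-damaged members (median 15.7) and between 10.4 and 39.7 in control members (median 15.9). Members just inside the threshold, at 10 to under 13, numbered 16 in the light-damaged library and 13 in the control library. Cells just outside it, at 7 to under 10, numbered 30 in the light-damaged library and 37 in the control library. Pf4, a chemokine that the rule did not use, stood at 520 CPM just inside and 528 CPM just outside in the light-damaged library, and at 1757 CPM just inside and 1105 CPM just outside in the control library.

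**Figure D1:**
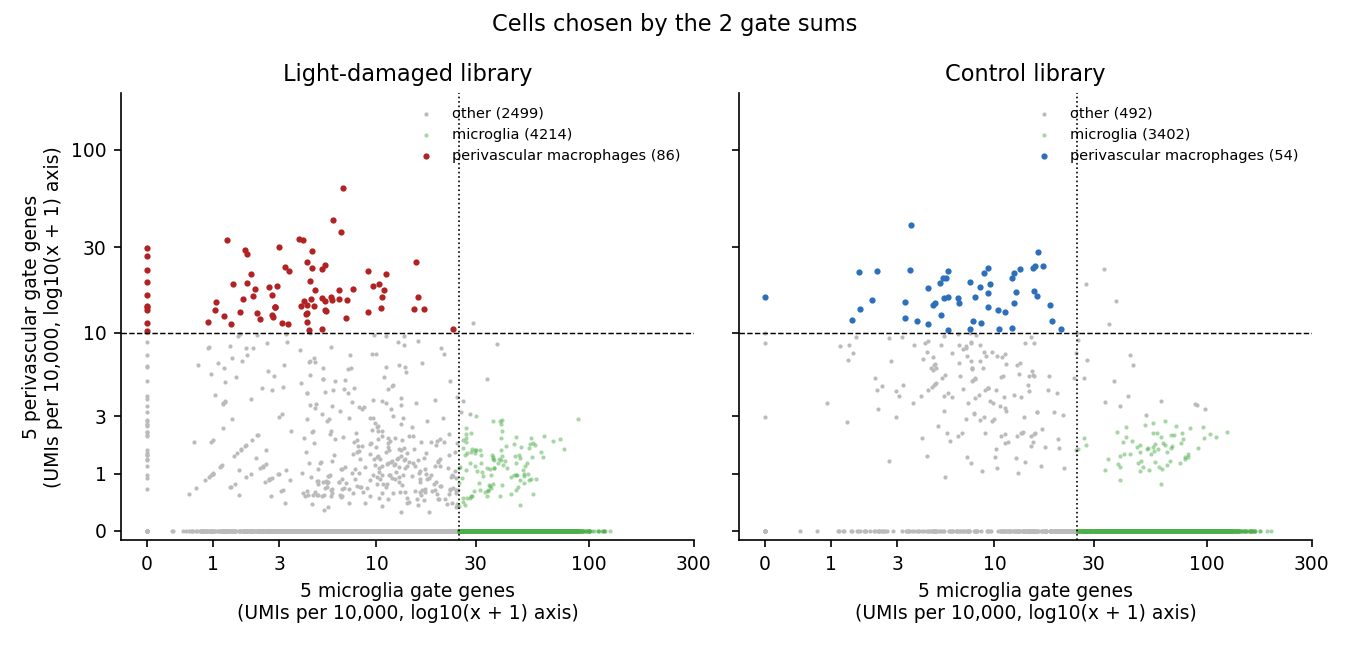
Each point is 1 cell, with the sum of the 5 microglia gate genes on the horizontal axis and of the 5 perivascular gate genes on the vertical axis, both in UMIs per 10000 on a log10(x + 1) scale. The light-damaged library is on the left with 86 members in red, and the control library on the right with 54 members in blue; dashed and dotted lines are the thresholds of 10 and 25, and grey cells reach up to the perivascular threshold from below in both libraries.

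The label was set beside markers. Of the 5 listed perivascular markers, Mrc1, F13a1, Cd163 and Cbr2 were part of the rule and Pf4 was not. Together they summed to 2277 CPM in light-damaged members and 3379 CPM in control members, beside 5.48 CPM in light-damaged and 14.8 CPM in control microglia. The rule used all of these genes but Pf4 to choose the members and to keep microglia low, so this gap was largely set in advance. Clec10a, a lectin of border and dermal macrophages, had 15 UMIs over all light-damaged members and 2 over control members. Cd209f, a lectin of brain border macrophages, had 0 UMIs in light-damaged members and 2 in control members. The name thus rested on Pf4, Ms4a7 and Folr2 beside the gate, and position next to a vessel was not measured. Ms4a7 did not fall across the perivascular threshold. In the light-damaged library it stood at 816 CPM just inside and 977 CPM just outside, and in the control library at 420 CPM and 535 CPM.

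Markers of other cells were few, apart from photoreceptor, glial, microglia and lesion macrophage transcripts. The 8 monocyte markers summed to 46.2 CPM in light-damaged members (20 of 86 cells with a UMI) and 8.05 CPM in control members (3 of 54 cells), with Ly6c2, Chil3 and Vcan at 0 in both. The 9 dendritic cell markers summed to 6.07 CPM in light-damaged members (5 of 86 cells) and 5.36 CPM in control members (2 of 54 cells), with Flt3, Clec9a, Cd209a, Ccr7, Dpp4 and Kmo at 0 in both. All mast cell, erythrocyte and T or NK cell markers in the files, were at 0 in both groups. B cell markers summed to 7.29 CPM in light-damaged members and 0 in control members, and neutrophil markers to 88.7 CPM in light-damaged and 56.3 CPM in control members, below the 159 CPM of light-damaged and 140 CPM of control microglia. The 7 rod markers summed to 436 CPM in light-damaged members (0 to 34.5 per 10000 over cells) and 582 CPM in control members (0 to 31.5), beside 80.6 CPM in light-damaged and 414 CPM in control microglia. Müller glia or astrocyte markers summed to 486 CPM in light-damaged members and 391.6 CPM in control members, below the 668 CPM of light-damaged and 854 CPM of control microglia. Microglia markers, which include the 5 microglia gate genes, summed to 3787 CPM in light-damaged and 3830 CPM in control members, against 19311 CPM in light-damaged and 22618 CPM in control microglia. Lesion macrophage markers, which include Ms4a7 and Spp1, summed to 2378 CPM in light-damaged members and 705 CPM in control members. They had a UMI in 86 of 86 light-damaged and 45 of 54 control members, with Arg1 at 0 in both. Cone, bipolar, endothelial, pericyte and pigment cell markers summed to 32.2 CPM or less each. The part of these transcripts in the results was not tested.

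The first comparison asked what set the members apart from the microglia sorted with them. Perivascular macrophages had far more transcript for border macrophage genes, for monocyte-attracting and neutrophil-attracting chemokines and for lipid-handling genes than microglia in both libraries, and far less for microglial genes. Since the cells were picked on transcripts of these libraries, the comparison is a description. A gene counted as different at a 2-fold ratio of CPM or more, among genes with at least 50 CPM in either group and leaving out the 10 gate genes. In the light-damaged library 343 of 2766 genes were higher than in microglia (12.4%) and 358 were lower (12.9%). In the control library 383 of 2810 genes were higher (13.6%) and 559 were lower (19.9%). Both libraries shared 255 higher genes (10.1% of the 2531 tested in both) and 277 lower genes (10.9%). The median gene had a log2 ratio of -0.29 in the light-damaged library and -0.33 in the control library, and centring on those medians gave 324 higher and 165 lower genes.

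Pf4, platelet factor 4, is a chemokine of platelets and of border macrophages. It had 664 CPM in light-damaged members and 1939 CPM in control members, beside 1.58 CPM in light-damaged and 10.8 CPM in control microglia. The ratio to microglia was 421 in the light-damaged library (314 to 576) and 179 in the control library (152 to 212), and 88.4% of light-damaged and 96.3% of control members had a UMI. Ms4a7, a membrane protein of the MS4A family found in border macrophages, had 816 CPM in light-damaged and 536 CPM in control members, 72.8-fold above microglia in the light-damaged library (63.9 to 83.1) and 77.8-fold in the control library (61.6 to 98.6). Each of the 86 light-damaged members had a Ms4a7 UMI, against 79.6% of control members. Folr2, the folate receptor beta, had 458 CPM in light-damaged and 244 CPM in control members, 22.3 times microglia in the light-damaged library and 111 times in the control library. Dab2, an adaptor for endocytosis, had 434 CPM in light-damaged and 566 CPM in control members, 39.1 times microglia in the light-damaged library and 176 times in the control library. Clec4n, the lectin receptor Dectin-2, had 346 CPM in light-damaged and 182 CPM in control members, 207 times microglia in the light-damaged library and 341 times in the control library. Of the 24 listed border macrophage genes outside the gate, 15 of 16 tested were higher than in microglia in the light-damaged library and 13 of 15 in the control library, with 0 lower in each. Their median log2 ratio was 3.94 in the light-damaged library and 4.32 in the control library.

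Chemokines stood out among the secreted products. Cxcl2, which attracts neutrophils, had 15087 CPM in light-damaged and 13908 CPM in control members, 101 times microglia in the light-damaged library and 69.4 times in the control library. Cxcl1, of the same activity, had 2044 CPM in light-damaged and 1665 CPM in control members. Ccl7 and Ccl2 attract monocytes through Ccr2. Ccl7 had 2603 CPM in light-damaged and 1813 CPM in control members, 234 times microglia in the light-damaged library and 122 times in the control library. Ccl2 had 2606 CPM in light-damaged and 3977 CPM in control members, 39.4 times microglia in the light-damaged library and 43.1 times in the control library. Of the chemokine list, 12 of 15 tested genes were higher than in microglia in the light-damaged library and 11 of 13 in the control library, with 1 lower in each. Among listed inflammatory cytokines and NF-kB targets, 13 of 15 were higher in the light-damaged library and 11 of 15 in the control library, with 0 and 1 lower. Of the immediate-early and heat-shock genes, which tissue digestion at 37 °C is known to induce, 10 of 18 were higher than in microglia in the light-damaged library and 12 of 18 in the control library. The part of digestion in the chemokine levels was not tested.

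Lipid genes were also higher than in microglia. Apoe, the lipoprotein component that carries lipid out of cells, made up 78729 CPM of light-damaged and 71099 CPM of control members, beside 9531 CPM in light-damaged and 1861 CPM in control microglia. The ratio was 8.26 in the light-damaged library (8.19 to 8.33) and 38.2 in the control library (37.6 to 38.9). Pltp, which transfers phospholipid between lipoproteins, had 261 CPM in light-damaged and 172 CPM in control members, and Ch25h, which makes 25-hydroxycholesterol, had 216 CPM in light-damaged and 164 CPM in control members. Msr1, the class A scavenger receptor, had 268 CPM in light-damaged and 161 CPM in control members, 34.4 times microglia in the light-damaged library and 87.3 times in the control library. Of the lipid list, 7 of 12 tested genes were higher and 1 lower in the light-damaged library, and 5 of 9 were higher and 1 lower in the control library.

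The remaining genes with the highest ratios in both libraries had other roles. Cd93, a C-type lectin-like receptor, had 113 CPM in light-damaged and 110 CPM in control members, 206 times microglia in the light-damaged library and 231 times in the control library. Bmp2, a bone morphogenetic protein, had 387 CPM in light-damaged and 282 CPM in control members, 573 times microglia in the light-damaged library and 118 times in the control library. Ifi203 and Mndal belong to the interferon-inducible p200 family, a multigene cluster whose reads may be split among copies. Ifi203 had 499 CPM in light-damaged and 504 CPM in control members, and Mndal 249 CPM in light-damaged and 311 CPM in control members. Lilr4b, an inhibitory immunoglobulin-like receptor with a near-identical neighbour, had 322 CPM in light-damaged and 359 CPM in control members. Serpinb8, a protease inhibitor, had 137 CPM in light-damaged and 193 CPM in control members, Pla2g7, a lipoprotein-bound phospholipase, 221 CPM in light-damaged and 107 CPM in control members, and Sdc4, a heparan sulphate proteoglycan, 601 CPM in light-damaged and 386 CPM in control members. These 20 genes stood at least 22.3-fold above microglia in both libraries.

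Microglial genes outside the gate were low in the members. Of the 20 listed, 16 of 19 tested were lower than in microglia in the light-damaged library and 17 of 19 in the control library, with median log2 ratios of -2.19 and -2.54. Sparc, a secreted matrix protein, had 134 CPM in light-damaged and 83.1 CPM in control members, 23.2-fold below microglia in the light-damaged library and 23.3-fold in the control library. Sall1, a transcription factor that maintains microglial identity, had 4 UMIs over all light-damaged and 2 over all control members. Adgrg1, an adhesion receptor, had 8.50 CPM in light-damaged and 10.7 CPM in control members, 24.2-fold below microglia in the light-damaged library and 24.5-fold in the control library. Cst3, the protease inhibitor cystatin C, had 6825 CPM in light-damaged and 13037 CPM in control members, 4.57-fold below microglia in the light-damaged library and 5.82-fold in the control library. Cx3cr1, the gene whose reporter was sorted, had 256 CPM in light-damaged and 188 CPM in control members, 3.78-fold below microglia in the light-damaged library and 5.11-fold in the control library. Fcrls went the other way, with 530 CPM in light-damaged and 649 CPM in control members, 1.88-fold above microglia in the light-damaged library and 10.1-fold in the control library. Cd34, Qpct, Adora3, Ecscr, Serpine2, Klk8 and Plxdc2 completed the 10 lowest genes. The complement gene C1qa had 6914 CPM in light-damaged and 4798 CPM in control members, 1.66-fold below microglia in the light-damaged library and 2.14-fold in the control library. Other lists were mixed. In the light-damaged library 8 of 19 interferon genes, 5 of 10 complement genes, 7 of 12 growth factor genes and 6 of 13 scavenger receptors were higher than in microglia, with 0, 1, 0 and 4 lower. In the control library these were 8 of 10, 4 of 10, 6 of 10 and 6 of 13, with 0, 3, 1 and 4 lower. Class II genes were higher for 1 of 4 and lower for 2 in the light-damaged library, and higher for 4 of 6 and lower for 0 in the control library. Lysosome and cathepsin genes were lower for 6 of 18 in the light-damaged library and for 8 of 18 in the control library, and higher for 0 and 1.

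**Figure D2:**
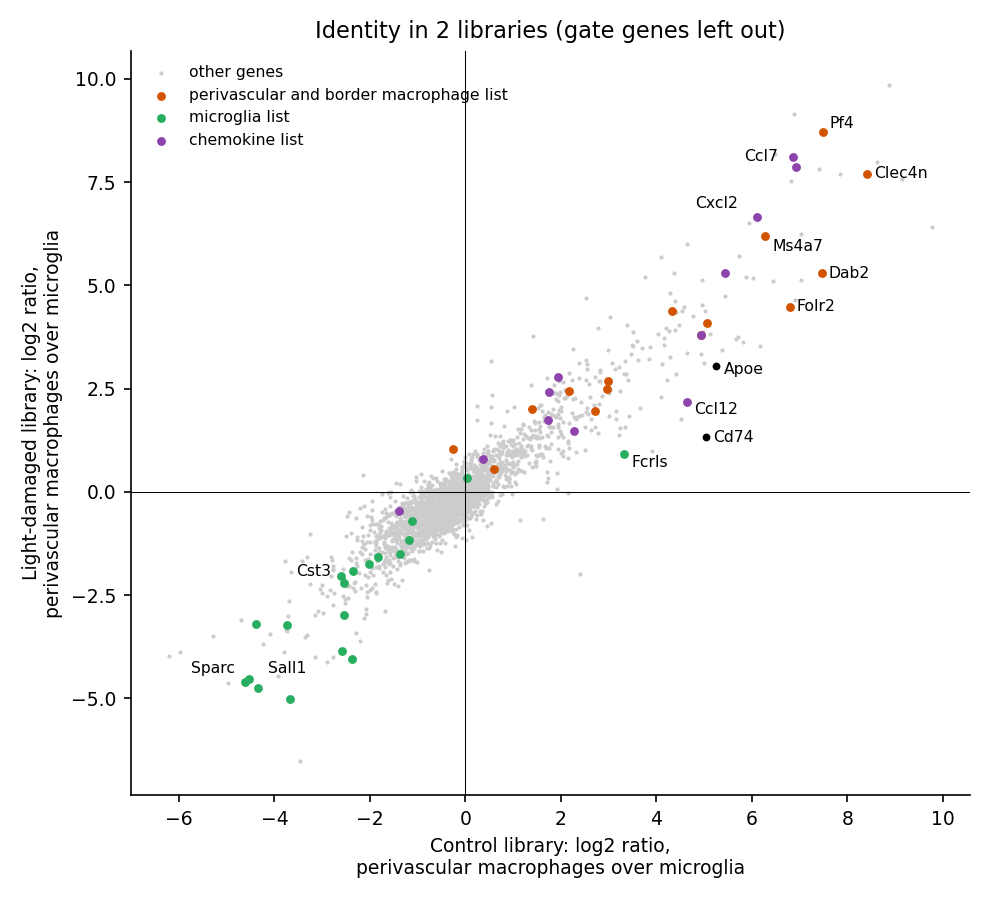
Each point is a gene tested in both libraries, with the log2 ratio of CPM of perivascular macrophages over microglia in the control library on the horizontal axis and in the light-damaged library on the vertical axis, gate genes left out. Border macrophage genes (orange) and chemokines (purple) lie mostly at the upper right and microglial genes (green) at the lower left, while Cd74, Apoe and Ccl12 (lower right of the upper group) have higher ratios in the control library.

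The second comparison asked how members of the light-damaged library differed from members of the control library. Light-damaged members had far lower MHC class II transcript and less Pf4 and Il10, lower values of several heat-shock and some immediate-early genes, and higher Ccl8, Spp1, C4b, Wfdc17 and interferon-induced genes. Of 2461 genes tested, 135 were at least 2-fold higher (5.49%) and 158 at least 2-fold lower (6.42%) in the light-damaged members. In microglia the same rule gave 39 of 2611 genes higher (1.49%) and 72 lower (2.76%), from sums over far more cells. Of 2025 genes tested in both, 0 passed 2-fold in opposite directions in perivascular macrophages and microglia. The median gene's log2 ratio was 0.07 in perivascular macrophages, and centring on it gave 112 higher and 173 lower genes. Of 232 genes on lists or among the 15 highest and lowest, 64 passed 2-fold. The 15 highest and 15 lowest were picked by this ratio, so their passing was set by the choice. Of the 64 genes, 25 passed 2-fold under all 18 settings tried. Some of these settings changed only the minimum CPM or share of cells for testing a gene, so they could not move its ratio.

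MHC class II had the list median farthest from 0. The class II sum of a cell, Cd74, H2-Aa, H2-Ab1 and H2-Eb1 per 10000 UMIs, had a lowest, median and highest value of 0, 1.81 and 36.2 in the 86 light-damaged members, against 0, 14.7 and 517 in the 54 control members. The ranges overlapped at low values, and control members alone went beyond 36.2. A cell was called class II-high at a sum of 20 or more, which held for 1 of 86 light-damaged members, 1.16% (0.0294% to 6.31%), against 25 of 54 control members, 46.3% (32.6% to 60.4%). The split is a range of a continuous sum and not a cell type: 5 light-damaged and 8 control members lay at 10 to under 20, and 0 and 2 at 20 to under 30.

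Cd74, the invariant chain that guides class II molecules through the cell, had 278 CPM in light-damaged and 4648 CPM in control members, 16.7-fold lower (14.6 to 19.3). H2-Aa and H2-Ab1 encode the alpha and beta chains of I-A. H2-Aa had 29.2 CPM in light-damaged and 612 CPM in control members, 21.0-fold lower (13.8 to 33.4). H2-Ab1 had 26.7 CPM in light-damaged and 703 CPM in control members, 26.3-fold lower (17.0 to 42.7). H2-Eb1, the beta chain of I-E, had 19.4 CPM in light-damaged and 335 CPM in control members, 17.3-fold lower (10.2 to 31.1). No single control cell carried these differences, since the top cell held 12.98% of the control Cd74 UMIs and 26.7% of the H2-Ab1 UMIs, and without the top cell of each gene the log2 ratios were -4.10 for Cd74 and -4.48 for H2-Ab1. H2-DMa, which loads peptide onto class II molecules, had 120 CPM in light-damaged and 290 CPM in control members, 2.41-fold lower (1.82 to 3.20), with a log2 ratio of -0.85 at a gate sum of 5 or more. Of the class II list, 5 of 6 tested genes were lower and 0 higher, with a median log2 ratio of -4.09. In microglia 4 were tested, 0 passed 2-fold, and the median was -0.33. Ciita, the class II transactivator, had 0 UMIs in the members of both libraries, which allows up to 3.64 CPM in light-damaged and 8.05 CPM in control members.

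The difference in shares of cells was also present at equal depth. After each cell was thinned to 2000 UMIs, which kept all 86 light-damaged and 51 control members, Cd74 had a UMI in 34.9% of light-damaged and 76.5% of control members (60.5% and 85.2% before thinning). The share in thinned microglia was 13.2% in the light-damaged and 15.8% in the control library. H2-Aa had a UMI in 4.65% of thinned light-damaged and 23.5% of thinned control members, beside 2.73% and 3.28% of microglia. H2-Ab1 had a UMI in 5.81% of thinned light-damaged members, which was below the 16.9% of microglia, and in 35.3% of thinned control members, above the 21.4% of microglia.

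The gate and the class II sum were not independent in the control library. Among members with a perivascular sum of 20 or more, 0 of 23 light-damaged and 1 of 16 control cells were class II-high, so that the share difference is not seen there. Cd74 had 35 UMIs in those light-damaged cells and 115 in those control cells, a log2 ratio of -2.74 between the 227550 and 111593 UMIs of all genes. H2-Aa had 5 UMIs in those light-damaged and 9 in those control cells, H2-Ab1 had 5 in each group and H2-Eb1 1 in each group, so these 3 rested on few molecules. With the threshold lowered to 5 the share was 11.6% of 147 light-damaged and 60.3% of 126 control cells. Just outside the gate, 6 of 30 light-damaged and 27 of 37 control cells were class II-high. Outside the members, 445 light-damaged cells (6.55%) and 198 control cells (5.02%) were class II-high. In those cells Pf4 stood at 50.3 CPM in the light-damaged and 786 CPM in the control library, Mrc1 at 28.6 CPM in the light-damaged and 205 CPM in the control library, and F13a1 at 11.7 CPM in the light-damaged and 87.5 CPM in the control library. Ccr2, the receptor of classical monocytes, stood there at 132 CPM in the light-damaged and 5.19 CPM in the control library. Mrc1 and F13a1 are gate genes and so low by the rule in cells outside the gate, and of these 3 only Pf4 was independent of it.

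**Figure D3:**
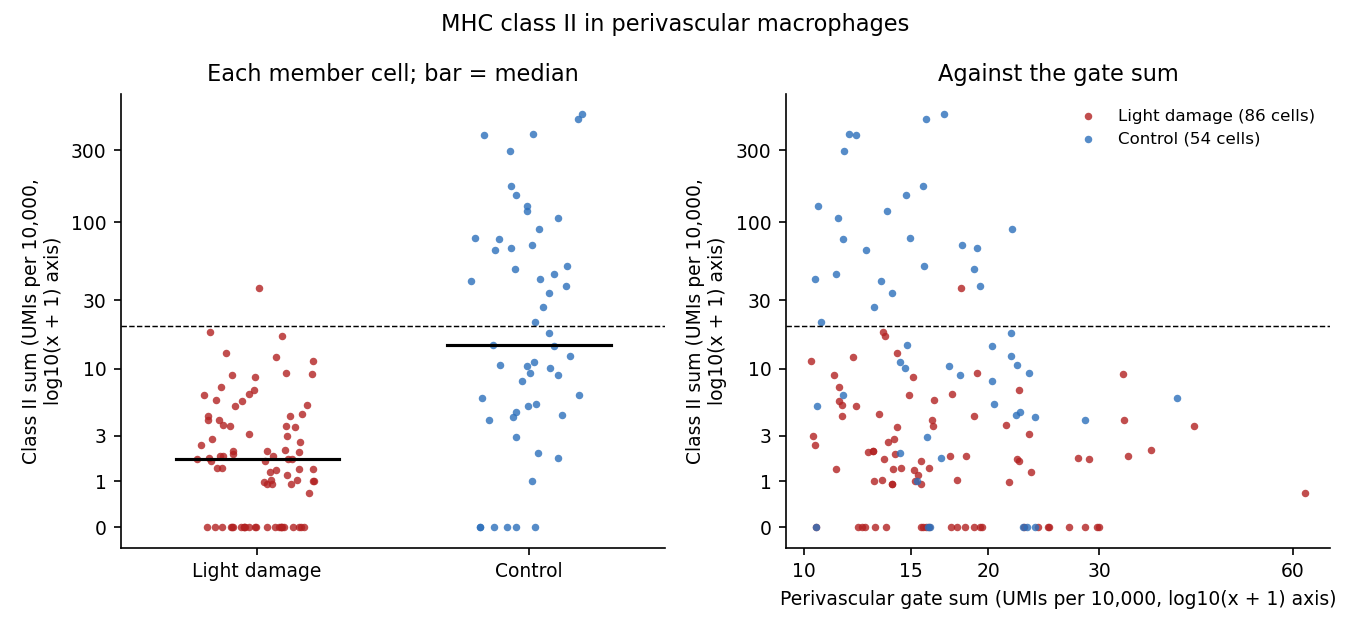
Each point is 1 member, with the class II sum in UMIs per 10000 on a log10(x + 1) vertical axis. The left panel gives the 86 light-damaged members (red, median 1.81) beside the 54 control members (blue, median 14.7), and the right panel sets the sum against the perivascular gate sum, where control cells above the dashed split of 20 lie mostly at gate sums under 20.

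Class II genes are known in mammals to be switched on together through a shared promoter module that ends in a Y box, whose core is ATTGG or its complement CCAAT. H2-Ab1 had no entry in the promoter source used here. The windows of 250 bases before the transcript starts of H2-Aa and H2-Eb1 are shown, since both genes were lower over all light-damaged members. They come from RefSeq (GRCm38.p6), at chr17:34287824-34288073 on the minus strand and chr17:34305617-34305866 on the plus strand, with the core in capitals.
H2-Aa: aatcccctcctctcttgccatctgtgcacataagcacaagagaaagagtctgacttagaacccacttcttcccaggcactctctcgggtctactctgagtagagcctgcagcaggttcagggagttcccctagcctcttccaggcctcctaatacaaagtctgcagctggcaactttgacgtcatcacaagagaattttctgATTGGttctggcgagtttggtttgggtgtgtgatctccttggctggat
H2-Eb1: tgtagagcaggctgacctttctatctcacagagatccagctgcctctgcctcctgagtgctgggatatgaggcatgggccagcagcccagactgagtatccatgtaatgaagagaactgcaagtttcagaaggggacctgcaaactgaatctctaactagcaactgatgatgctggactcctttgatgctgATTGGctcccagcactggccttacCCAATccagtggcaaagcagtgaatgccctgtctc
The H2-Aa window held 1 core, 48 bases before the start, and the H2-Eb1 window 2 cores, of which the nearer lay 35 bases before the start. Both strands were searched. Of 27025 such windows, 34.5% held this core, so a match is common and describes the letters only. Neither window held TATA, which 34.8% of windows hold. H2-Aa (chr17:34282744-34287823), H2-Ab1 (chr17:34257689-34269419) and H2-Eb1 (chr17:34305867-34316674) are neighbours in the class II region on GRCm38 in the GENCODE M21 annotation.

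Class II-high and class II-low cells were then taken apart. In the control library, 25 class II-high members (182794 UMIs) stood beside 29 class II-low members (190081 UMIs). The 4 split genes were left out, since they define the sides. Of 2505 genes, 243 were at least 2-fold higher (9.70%) and 283 lower (11.3%) in class II-high cells, from few cells on each side. Class II-high cells had more chemokine and cytokine transcript. Cxcl1 had 2888 CPM in class II-high and 489 CPM in class II-low cells, 5.90-fold (4.73 to 7.44). Cxcl2 had 20230 CPM in class II-high and 7828 CPM in class II-low cells, and Ccl2 5498 CPM in class II-high and 2515 CPM in class II-low cells. Il1b, a pyrogenic cytokine, had 3468 CPM in class II-high and 1257 CPM in class II-low cells, and Tnf 777 CPM in class II-high and 289 CPM in class II-low cells. Cd83, a surface protein that stabilises class II molecules, had 4119 CPM in class II-high and 1526 CPM in class II-low cells. Of the cytokine and NF-kB list 8 of 15 genes were higher and 1 lower (median log2 1.10), and of the chemokines 6 of 13 were higher and 1 lower (median 0.87), beside a median of -0.16 over all genes.

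Border macrophage genes tended to be lower in class II-high cells, with 4 of 17 lower, 1 higher and a median log2 of -0.65. Mrc1 had 547 CPM in class II-high and 1026 CPM in class II-low cells, although it is a gate gene and so no independent measure. Folr2 had 159 CPM in class II-high and 326 CPM in class II-low cells, and Dab2 410 CPM in class II-high and 716 CPM in class II-low cells. Pf4 and Lyve1 did not follow, with 2210 CPM of Pf4 in class II-high and 1678 CPM in class II-low cells, and with 290 CPM of Lyve1 in class II-high and 258 CPM in class II-low cells. Genes with the highest ratios by the naming rule (Stmn1, Csf2, Vps8, Apopt1, Stxbp2, Cryab, Hist1h2ap, Slc31a1 and Smg9) and the 10 with the lowest ratios (Brip1os, 1500002C15Rik, Smim11, Dtd2, Myc, Saa3, Plk2, Gm12840, Ctage5 and Atxn7l3b) were mostly carried by single cells. A single cell held 95.8% of the control UMIs of Cryab, a small heat-shock protein.

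Among class II-low cells alone, 85 in the light-damaged and 29 in the control library, 220 of 2572 genes were at least 2-fold higher (8.55%) and 194 lower (7.54%) in light-damaged cells, the 4 split genes left out. All 86 light-damaged members set against the 25 control class II-high members gave 265 of 2462 genes higher (10.8%) and 211 lower (8.57%). Ccl8, Spp1, C4b and Pf4 kept their direction on the class II-low side and stayed past 2-fold. Ccl8 had 529 CPM in light-damaged and 10.5 CPM in control class II-low cells, a ratio of 50.2 (13.8 to 416) from 2 control UMIs. Spp1 had 1455 CPM in light-damaged and 47.4 CPM in control class II-low cells, and C4b had 320 CPM in light-damaged and 68.4 CPM in control class II-low cells. Pf4 had 668 CPM in light-damaged and 1678 CPM in control class II-low cells, 2.51-fold lower. Cd74 was 2.38-fold lower (1.86 to 3.02), at 239 CPM in light-damaged and 568 CPM in control class II-low cells, although low values are what chose both sides. H2-Aa had 27.1 CPM in light-damaged and 36.8 CPM in control class II-low cells, and H2-Ab1 23.4 CPM in light-damaged and 36.8 CPM in control class II-low cells, with log2 ratios of -0.44 and -0.65, both below 2-fold. H2-Eb1 turned round, at 17.3 CPM in light-damaged and 5.26 CPM in control class II-low cells, the last from 1 UMI. Cxcl1 and Tnf passed 2-fold on this side and not over all members. The control class II-high cells left out here had more of both genes than the control class II-low cells. The larger Cxcl1 ratio thus came with a lower control level and hardly any change in the light-damaged level. Light-damaged members had less Cxcl1 than the control class II-high cells. Cxcl1 had 2073 CPM in light-damaged and 489 CPM in control class II-low cells, 4.24-fold (3.44 to 5.28), whereas over all members it had 2044 CPM in light-damaged and 1665 CPM in control cells. Tnf had 822 CPM in light-damaged and 289 CPM in control class II-low cells, 2.84-fold (2.16 to 3.81). Unlike for Cxcl1, this light-damaged level was above the control class II-high level given above. The log2 ratio of Tnf was 0.62 over all members and 1.74 at a gate sum of 20 or more.

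Secreted factors led the genes that were higher in light-damaged members. Ccl8, a chemokine that attracts monocytes and lymphocytes (chr11:82115185-82116799), had 521 CPM in light-damaged and 8.05 CPM in control members, 64.8-fold (22.01 to 315) from 429 and 3 UMIs. In single cells it ran between 0 and 41.5 per 10000 in light-damaged members (median 1.79) and between 0 and 1.67 in control members (median 0). Thinned to equal depth, 40.7% of light-damaged and 3.92% of control members had a Ccl8 UMI, beside 0.261% and 0% of microglia. Spp1, osteopontin, a secreted adhesive phosphoprotein (chr5:104435118-104441050), had 1434 CPM in light-damaged and 156 CPM in control members, 9.22-fold (7.08 to 12.2). It ran between 0 and 142 per 10000 in light-damaged members (median 1.58) and between 0 and 31.4 in control members (median 0), and its upper quartile in light-damaged members was 16.6, so it was spread unevenly over the cells. Thinned, 45.3% of light-damaged and 7.84% of control members had a UMI, beside 9.82% and 2.72% of microglia. Wfdc17, a secreted protein with a WAP domain, had 1572 CPM in light-damaged and 434 CPM in control members, 3.62-fold (3.07 to 4.29).

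C4b, a complement component (chr17:34728380-34743882), had 321 CPM in light-damaged and 67.0 CPM in control members, 4.78-fold (3.17 to 7.53), with a UMI in 74.4% and 29.6% of cells. Its reads are uncertain because C4a is a near-identical copy. In microglia C4b had 26.1 CPM in the light-damaged and 1.19 CPM in the control library, under the minimum of 50 and so outside the genes tested there. Gpx3, a secreted glutathione peroxidase, had 163 CPM in light-damaged and 21.5 CPM in control members, 7.59-fold (3.74 to 17.9). Vim, the intermediate filament vimentin, had 239 CPM in light-damaged and 37.6 CPM in control members. Socs3, which dampens cytokine receptor signalling through STAT3, had 307 CPM in light-damaged and 61.7 CPM in control members, 4.98-fold (3.25 to 8.00), while its log2 ratio in microglia was -0.23. Apoc1, an apolipoprotein, had 265 CPM in light-damaged and 77.8 CPM in control members. Hilpda, a lipid droplet protein, had 200 CPM in light-damaged and 53.6 CPM in control members. Pirb, an inhibitory receptor with near-identical family members and so uncertain, had 103 CPM in light-damaged and 26.8 CPM in control members. Clec4d, a lectin receptor, had 159 CPM in light-damaged and 48.3 CPM in control members, and Zfos1 had 386 CPM in light-damaged and 118 CPM in control members. Some of these ratios hung on the gate or the averaging. At a gate sum of 20 or more the log2 ratio of Socs3 was 0.78 (2.32 over all members) and that of Clec4d 0.61 (1.72), at a gate sum of 5 or more that of Hilpda was 0.13 (1.90), and with a mean of CPM per cell that of Apoc1 was 0.95 (1.77).

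For 3 others among the 15 highest, 1 cell held a large part of the UMIs of the light-damaged or the control side. Tnfsf9, the ligand of the costimulatory receptor 4-1BB, had 214 CPM in light-damaged and 8.05 CPM in control members, and 1 cell held 38.1% of its light-damaged UMIs. Gdf15, a stress-induced cytokine, had 131 CPM in light-damaged and 10.7 CPM in control members, with 50.9% of the light-damaged UMIs in 1 cell and a log2 ratio of -0.18 at a gate sum of 5 or more. Saa3, an acute-phase serum amyloid, had 605 CPM in light-damaged and 53.6 CPM in control members, and its 20 control UMIs all came from 1 cell. Vsig4, a complement receptor of tissue macrophages, had 35 UMIs in light-damaged and 0 in control members, at least 5.28-fold higher against a floor of 3 UMIs over the group, with 48.6% of its UMIs in 1 cell.

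**Figure D4:**
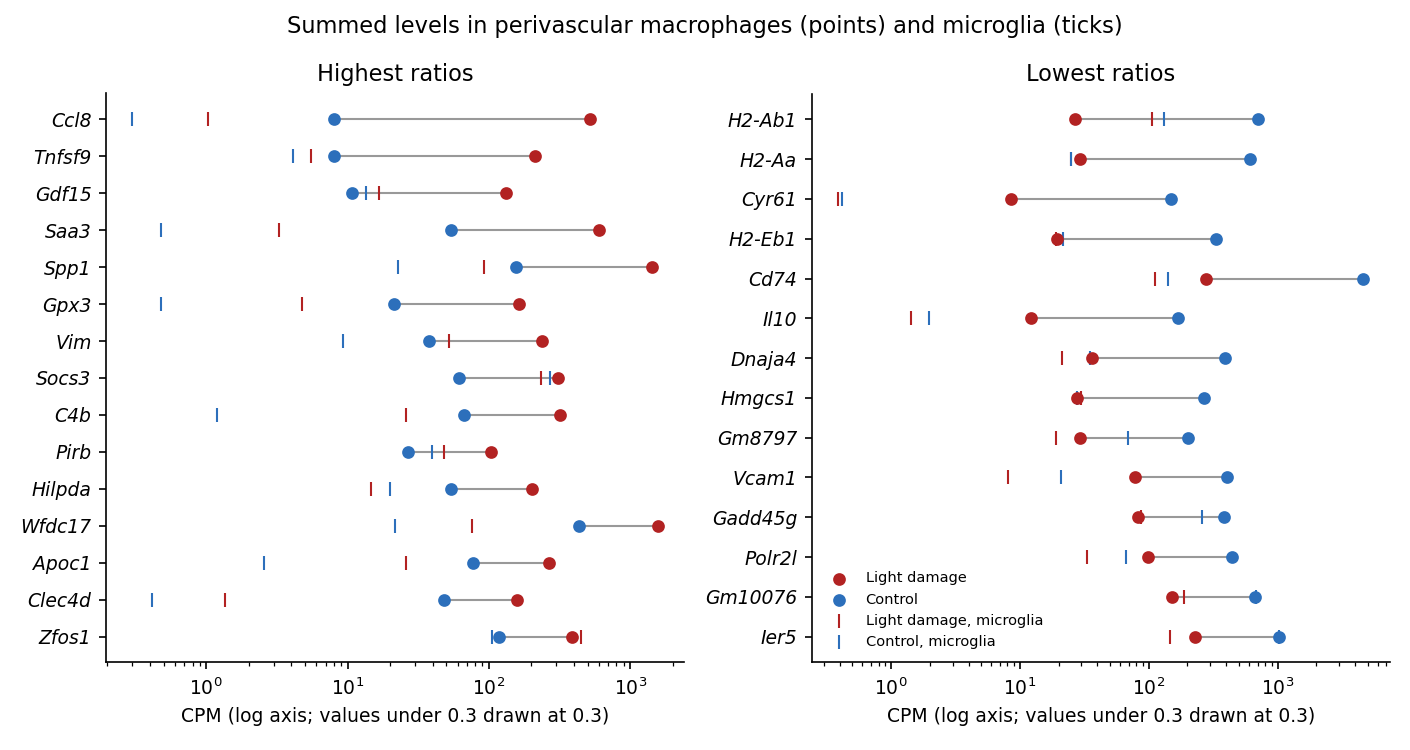
Summed CPM on a log axis for the 15 genes with the highest ratios (left) and for genes with the lowest ratios (right) of light damage over control, with light-damaged members in red and control members in blue, and microglia of the same libraries as ticks. Red points lie right of blue ones in the left panel and left of them in the right panel, and the ticks of the class II genes lie close together.

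Genes of pathways were read from fixed lists. Of the type I interferon list, 8 of 18 tested genes were higher and 0 lower in light-damaged members, with a median log2 ratio of 0.93, while in microglia 10 of 12 were higher and 0 lower, with a median of 1.80. Ifit1 and Ifit3 encode antiviral proteins. Ifit1 had 63.2 CPM in light-damaged and 2.68 CPM in control members, from 1 control UMI, a ratio of 23.6 (4.04 to 948), with 36.5% of the light-damaged UMIs in 1 cell. Ifit3, which has a near-identical copy, had 80.2 CPM in light-damaged and 10.7 CPM in control members. Lgals3bp, a secreted galectin-binding glycoprotein, had 278 CPM in light-damaged and 93.9 CPM in control members, 2.96-fold (2.07 to 4.36). At a gate sum of 20 or more Ifit1 had 1 UMI in light-damaged and 0 in control members, the log2 ratios of Ifit3 (0.97) and Lgals3bp (0.63) were below 2-fold, and the list median was 0.35. Irf7, the master factor of the interferon response, had 178 CPM in light-damaged and 123 CPM in control members, 1.45-fold, whereas its ratio in microglia was 10.9 (9.23 to 13.1). Ifitm3, which blocks virus entry, had a log2 ratio of 0.91, against a 6.603-fold ratio in microglia.

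Lysosomal and lipid genes showed smaller differences. Ctsd, a lysosomal aspartic protease, had 5351 CPM in light-damaged and 2373 CPM in control members, 2.25-fold (2.10 to 2.43), and Ctsl, a cysteine protease, 794 CPM in light-damaged and 346 CPM in control members, 2.296-fold (1.90 to 2.80). Of the lysosome list 2 of 18 were higher and 0 lower (median log2 0.38). Of the lipid list 4 of 10 were higher and 0 lower (median 0.77), among them Lipa, the lysosomal acid lipase, at 140 CPM in light-damaged and 59.0 CPM in control members, and Plin2, a lipid droplet coat protein, at 273 CPM in light-damaged and 129 CPM in control members. At a gate sum of 20 or more none of these 4 passed 2-fold, with log2 ratios of 0.81 for Ctsd, 0.89 for Ctsl, 0.93 for Lipa and 0.067 for Plin2, and the list medians were 0.25 for the lysosome and 0.15 for lipid handling. Apoe differed little, at 1.11-fold (1.09 to 1.12), while in microglia it was 5.12-fold higher (5.06 to 5.18) in the light-damaged library. Of the lesion and disease-associated list 4 of 9 were higher and 0 lower (median 0.92), and in microglia 4 of 8 (median 0.75). Lgals3, a galectin of activated phagocytes, had 88.7 CPM in light-damaged and 10.7 CPM in control members, 8.27-fold. Gpnmb, a glycoprotein of lesion macrophages, had 26 UMIs in light-damaged members, in 9 of 86 cells, and 0 in control members, at least 3.93-fold higher. Igf1, a growth factor, had 108 CPM in light-damaged and 42.9 CPM in control members, 2.52-fold (1.47 to 4.60), with a log2 ratio of 0.80 among class II-low members.

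Among border macrophage genes the direction was mixed, with 3 of 16 tested genes higher and 2 lower (median log2 0.62). Pf4 (chr5:90772435-90773383) had 664 CPM in light-damaged and 1939 CPM in control members, 2.92-fold lower (2.61 to 3.27). Over single cells it ran between 0 and 35.3 per 10000 in light-damaged members (median 4.56) and between 0 and 127 in control members (median 12.1), with 20.2% of the control UMIs in 1 cell. Without the top cell the log2 ratio was -1.32, against -1.54 with it, and among cells with a gate sum of 20 or more it was -0.56. Thinned, 57.0% of light-damaged and 90.2% of control members had a Pf4 UMI, beside 0.356% and 1.95% of microglia. Folr2 and Ms4a7 lay on the other side below 2-fold, at 1.88-fold (1.49 to 2.39) and 1.52-fold (1.30 to 1.79) in light-damaged members. Ccl24, an eosinophil-attracting chemokine, had 98.4 CPM in light-damaged and 255 CPM in control members, with 42.0% of the light-damaged and 40.0% of the control UMIs in 1 cell, and its log2 ratio was 0.36 at a gate sum of 20 or more.

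Il10, an anti-inflammatory cytokine, had 12.2 CPM in light-damaged and 169 CPM in control members, 13.9-fold lower (7.09 to 30.4). It was seen in 11.6% of light-damaged and 12.96% of control members, so a UMI was about as frequent in both and the summed amounts differed. A single cell held 33.3% of its 63 control UMIs, and with the gate sum lowered to 5 its log2 ratio was -1.24, against -3.80 over the members. Vcam1, an adhesion molecule for leukocytes, had 79.0 CPM in light-damaged and 405 CPM in control members, 5.13-fold lower (3.81 to 6.97), and its log2 ratio in microglia was -1.35, at 8.15 CPM in light-damaged and 20.7 CPM in control microglia, under the minimum of 50. Hmox1, which degrades haem, had 1494 CPM in light-damaged and 3304 CPM in control members, 2.21-fold lower, although at a gate sum of 20 or more its log2 ratio was 0.0072. Cst3 had a lowest, median and highest value of 32.5, 63.0 and 242 per 10000 in light-damaged cells and 72.4, 129 and 276 in control cells, 1.91-fold lower in CPM. In microglia its log2 ratio was -1.28.

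Several heat-shock genes and some immediate-early genes were lower. Of the immediate-early and heat-shock list, 8 of 18 were lower and 0 higher in light-damaged members (median log2 -0.90, and -0.69 at a gate sum of 20 or more), while in microglia 4 of 17 were lower and 0 higher (median -0.41). Dnajb1, a heat-shock co-chaperone, had 924 CPM in light-damaged and 3604 CPM in control members, 3.90-fold lower (3.57 to 4.27), with a log2 ratio of -1.96 against -0.27 in microglia. Hspa1a, an inducible Hsp70 whose reads are uncertain beside its near-identical copy Hspa1b, had 12116 CPM in light-damaged and 28181 CPM in control members. Hsp90aa1, an inducible Hsp90, had 4738 CPM in light-damaged and 10709 CPM in control members, and Dnaja4, another co-chaperone, 36.4 CPM in light-damaged and 391.6 CPM in control members. At a gate sum of 20 or more the log2 ratio of Dnajb1 was -2.09, while Hsp90aa1 (-0.66) and Dnaja4 (-0.25, against -3.43 over all members) no longer passed 2-fold. Ier5, an immediate-early gene, had 228 CPM in light-damaged and 1019 CPM in control members, with log2 ratios of -2.16 in perivascular macrophages and -2.81 in microglia. The immediate-early genes Egr1 (-1.09) and Nr4a1 (-1.12) also passed 2-fold, but at a gate sum of 20 or more they stood at -0.19 and 0.011. Among those that did not pass, Jun (-0.75) lay below 0, and Fos (0.03), Fosb (0.83) and Egr2 (0.50) lay above it. Each group was 1 preparation, so preparation and group cannot be told apart.

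The other genes among the 15 lowest included some that were also lower in light-damaged microglia. The predicted genes Gm8797 and Gm10076 had log2 ratios of -2.79 and -2.16, against -1.85 and -1.84 in microglia, and Polr2l, an RNA polymerase II subunit, had one of -2.16. A single control cell held 55.4% of the control UMIs of Cyr61, a matricellular protein, and 60.4% of those of Gadd45g, a stress sensor. The log2 ratio of Cyr61 was -0.44 at a gate sum of 20 or more. Hmgcs1, an enzyme of cholesterol synthesis, had 27.9 CPM in light-damaged and 268 CPM in control members.

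Other lists showed few members past 2-fold. Chemokines had 2 of 15 higher and 2 lower (median log2 0.08), with Ccl12, a monocyte-attracting chemokine, at 2564 CPM in light-damaged and 3757 CPM in control members, against a log2 ratio of 1.89 in microglia. Inflammatory cytokines and NF-kB targets had 1 of 15 higher and 0 lower (median 0.00). Complement had 2 of 10 higher and 0 lower (0.48), scavenger and endocytic receptors 3 of 12 higher and 0 lower (0.48), and growth factors and vascular signals 2 of 11 higher and 0 lower (0.50). Iron and haem handling had 1 of 8 higher and 1 lower (0.16), and alternative activation and regulation 1 of 8 higher and 1 lower (0.23). Myeloid transcription factors had 0 of 21 higher and 2 lower (-0.02). MHC class I (10 tested, 0.36), Fc gamma receptors (5 tested, 0.57), oxidative phosphorylation (12 tested, 0.01), microglial genes outside the gate (13 tested, 0.00) and cell cycle (2 tested) had 0 past 2-fold in either direction. H2-D1, an MHC class I heavy chain that displays peptides made within the cell, had 3497 CPM in light-damaged and 2135 CPM in control members.

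**Figure D5:**
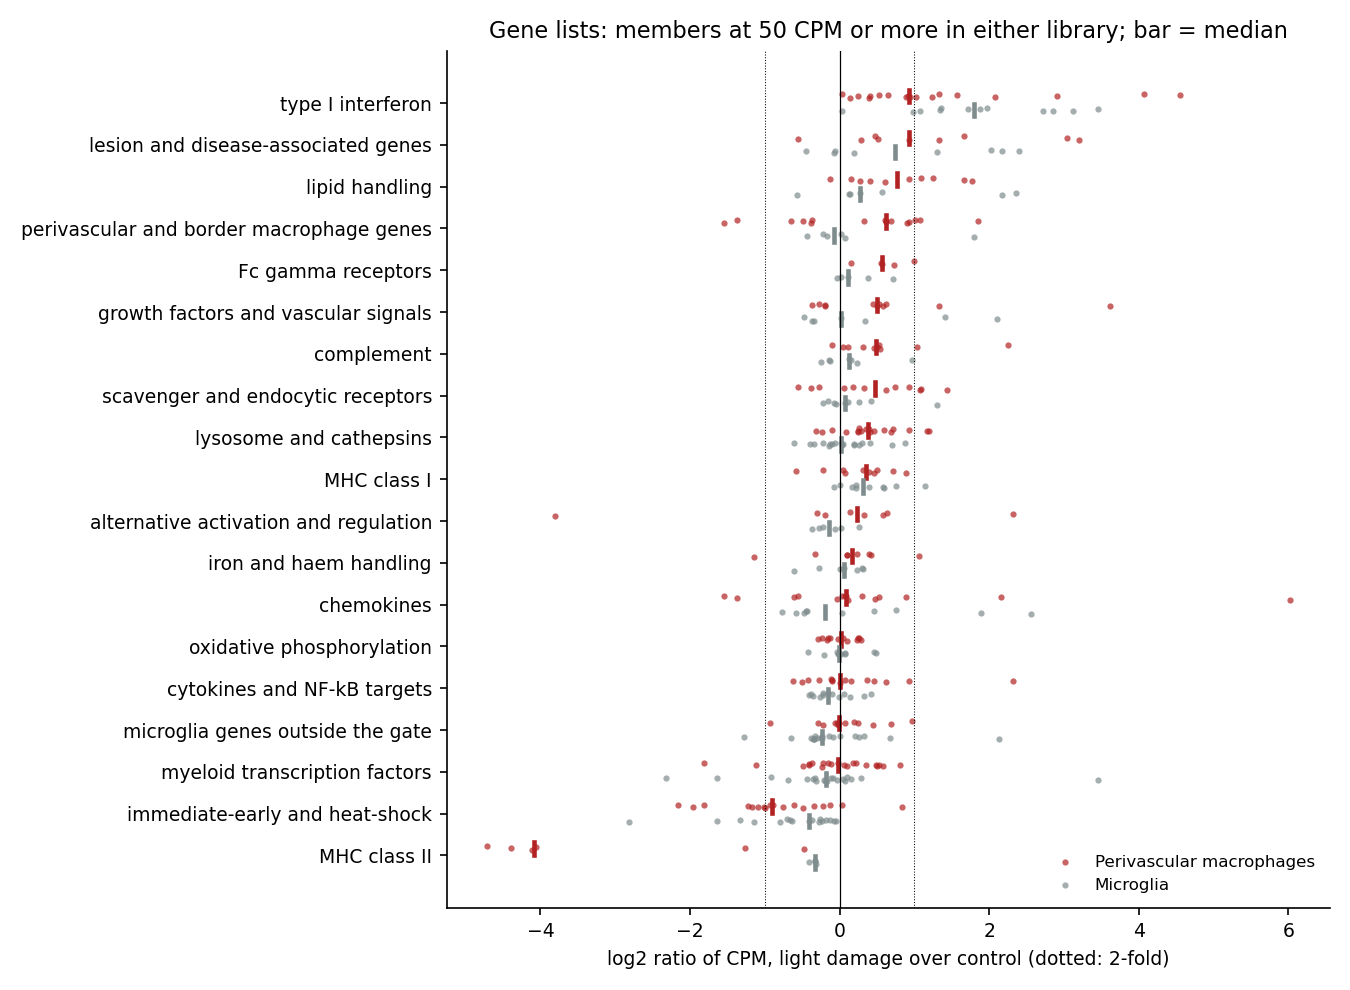
Each point is a gene of a list with at least 50 CPM in either library, at its log2 ratio of CPM, light damage over control, in perivascular macrophages (red) and microglia (grey); bars are medians and dotted lines mark 2-fold. MHC class II stands apart at a median of -4.09 in perivascular macrophages and -0.33 in microglia, and the type I interferon list has a median of 0.93 in perivascular macrophages and 1.80 in microglia.

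Members also differed by whether a Lyve1 UMI was seen, in 41 of 86 light-damaged (47.7%) and 31 of 54 control members (57.4%). Lyve1 is a gate gene, so cells without a Lyve1 UMI had to reach the threshold on the other gate genes alone. In the control library 15 of 25 class II-high and 16 of 29 class II-low members had one, so the Lyve1 and class II splits cut across each other. Of 2506 genes in the light-damaged library, 66 were at least 2-fold higher (2.63%) and 72 lower (2.87%) in Lyve1-positive cells. Of 2612 genes in the control library, 247 were higher (9.46%) and 238 lower (9.11%), from fewer cells. Ccl7 and Vcam1 were at least 2-fold lower in Lyve1-positive cells of both libraries, while Spp1 passed 2-fold in the light-damaged library only and Cxcl1 in the control library only. Ccl7 had 1790 CPM in Lyve1-positive and 3587 CPM in Lyve1-negative light-damaged cells, and 1317 CPM in Lyve1-positive and 2685 CPM in Lyve1-negative control cells. Cxcl1 had 1470 CPM in Lyve1-positive and 2738 CPM in Lyve1-negative light-damaged cells, and 1010 CPM in Lyve1-positive and 2818 CPM in Lyve1-negative control cells. Spp1 had 865 CPM in Lyve1-positive and 2124 CPM in Lyve1-negative light-damaged cells, and 122 CPM in Lyve1-positive and 214 CPM in Lyve1-negative control cells. Vcam1 had 51.0 CPM in Lyve1-positive and 113 CPM in Lyve1-negative light-damaged cells, and 282 CPM in Lyve1-positive and 621 CPM in Lyve1-negative control cells. Aig1, Tmem261, Denr, Clec4e, Uap1l1 and Ehd1 completed the 10 genes that were lowest in Lyve1-positive cells of both libraries. The 10 highest were Wsb1, Ier2, Crip1, Acly, Jun, Nr4a1, Rhob, Cycs, Rasgef1b and Tbxas1, among them the immediate-early genes Ier2, Jun and Nr4a1. None of these 10 passed 2-fold in both libraries, and Wsb1 came nearest with a lesser log2 ratio of 0.97. Jun had 2311 CPM in Lyve1-positive and 1461 CPM in Lyve1-negative light-damaged cells, and 4152 CPM in Lyve1-positive and 1642 CPM in Lyve1-negative control cells. A Lyve1 UMI is more often seen in deeper cells, whose median was 10006 UMIs in Lyve1-positive and 8423 in Lyve1-negative light-damaged cells, and 7481 in Lyve1-positive and 5821 in Lyve1-negative control cells.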

How the data were processed

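Sorted retinal cells were profiled as 2 droplet libraries, 1 per group. The authors deposited raw UMI counts per gene and cell barcode (27998 gene IDs), made with Cell Ranger 2.0.0 on mm10 per the submitters' processing notes; other settings were not given in the sources used here. Counts were read with Python 3.11.15 and scanpy 1.11.5, and the gate above was applied. No doublets were removed in the main values; the cells with the highest scanpy doublet scores (370 light-damaged and 125 control barcodes, of them 1 and 0 members) were left out as an alternative. Counts were summed over the cells of a class and divided by their summed UMIs (CPM). Genes at 50 CPM or more in either class were compared, with 2-fold as the threshold and a floor of 3 counts for zeros. With 1 library per group no test was run; exact Poisson-ratio and Clopper-Pearson intervals (SciPy 1.17.1) cover counting error only, and not mice, pools or libraries. The members and gene lists were chosen with earlier results of these data known. Named genes are the 20 highest and 10 lowest against microglia in both libraries, the 15 highest and 15 lowest of light damage over control, and the 10 at each end of the control class II split and of the Lyve1 split (same sign in both libraries), all with at least 100 CPM on the higher side and, for light damage, a UMI in at least 10% of those members. List members given beside them serve as examples. Of 386 listed genes 383 were in the files; Clec7a, Cebpd and Trac were not analysed here. The computation was tested on simulated data. Some genes that the rule names are not reported here.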

Additional observations from a re-analysis of the deposited data

How the results depend on the processing

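Among values for single genes and lists under the alternatives, 4257 kept their size or side, 193 moved and 5 reversed. The 4257 include single-gene ratios at a minimum of 20 CPM, at 200 CPM and at a UMI in 10% of members, which could not move. Among counts and shares that answer a comparison, 91 kept their size and 35 moved. With a perivascular sum of at least 20, members made up 0.338% of light-damaged and 0.405% of control cells, the class II-high share was 0% and 6.25%, and 324 genes were higher and 389 lower, of which 70 and 87 were shared with the 135 and 158 given above. There Ccl24 (0.36), Hmox1 (0.0072) and Nr4a1 (0.011) reversed in log2 ratio. With a sum of at least 5, members made up 2.16% of light-damaged and 3.19% of control cells, the light-damaged class II-high share was 11.6%, Gdf15 reversed to -0.18 and 3 lists in place of 1 had a median past 2-fold. That number was 2 without Lyve1 in the gate, at 20 CPM, and with class II-low members only, the last chosen after seeing the data. A microglia sum under 10 gave 0.912% of control cells. Splitting class II at 10 gave 6.98% of light-damaged and 61.1% of control members, and at 50 gave 0% and 31.5%. A minimum of 20 CPM gave 445 higher and 388 lower genes between libraries and 383 and 490 against microglia; 200 CPM gave 22 and 60, and 115 and 82. A pseudocount of 10 CPM gave 84 higher genes, class II-low members only gave 220 and an H2-Eb1 log2 ratio of 1.71, and centring gave 165 genes lower than microglia. Without thinning, light-damaged shares of cells with a UMI were 60.5% for Cd74, 17.4% for H2-Aa, 88.4% for Pf4, 62.8% for Spp1 and 65.1% for Ccl8, and the control share for H2-Aa was 53.7%. The cause of these changes was not tested. Log2 ratios ranged between 4.79 and 6.36 for Ccl8, 2.87 and 4.94 for Spp1, and -4.27 and -1.25 for Cd74. Class II-high members alone could not be compared between libraries, since the light-damaged library had 1. No paired analysis was possible because each group is 1 library. A count of 0 among the 54 control members, at the limit of 3 counts, allows up to 5.56% of them.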
